A study of Rattus norvegicus with 6 samples.

Results

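The Notch pathway was followed in rat aortic smooth muscle cells through 9 genes: the receptors Notch1, Notch2 and Notch3, the ligands Jag1 and Jag2, the DNA-binding factor Rbpj, and the target genes Hes1, Hey1 and Hey2. Every probe set whose annotation named exactly 1 of these symbols was taken, which gave 12 of 31099 probe sets on the array, for 9 of 14217 genes with a symbol of their own, and 11 of the 12 were bright enough to be tested. The tested cultures were 3 confluent monolayers under laminar shear stress of 14 dyn/cm2 for 24 h in a parallel-plate chamber, and their partners were 3 static cultures. Cells of both groups were of passage 3 to 5, grown in 10% serum and kept for 24 h in 0.1% albumin beforehand, and each sheared culture carried the pairing number of 1 static culture. Nothing in the labels tells what the members of a pair had in common, so the spread behind each p-value may be only technical, and any other difference between the chamber and the static dish goes with the groups.

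Notch receptors are membrane proteins that are activated by ligands on a neighbouring cell. Ligand binding exposes the receptor to cutting by an ADAM protease and then by gamma-secretase, and the freed intracellular domain enters the nucleus, binds RBPJ and switches on genes such as the transcriptional repressors of the HES and HEY families. In the artery wall NOTCH2 and NOTCH3 are the receptors typical of smooth muscle, JAG1 passes the signal from cell to cell, and HEY2 is a target known from vascular smooth muscle.

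The target gene Hey2 and the ligand Jag1 fell strongly under shear stress, Notch1 and Notch3 fell from already low signals, and Notch2 rose. The Notch3 call was lost whichever pair was left out, after quantile normalization and after median centring. Hes1 and Hey1 did not pass the test. Rbpj passed on 1 of its 3 probe sets, a call lost under several settings, among them without pair 2 or pair 3. Of the 11 tested probe sets 6 fell, 1 rose and 4 did not pass at an adjusted p of 0.05 in limma; 1 of the 6 was a Notch1 probe set, 1390426_at, that was bright enough only in static cells. Over the whole array 52.8% of 21729 tested probe sets were called, 28.5% as fallen and 24.3% as risen, so being called is in itself common here. Without pair 1 the calls over the array went from 11471 to 13024, and without pair 2 or pair 3 to 8793 or 8389. Calls gained or lost in those fits thus went with a shift of the whole array. The median log2 change was -0.31 over the 11 member probe sets that passed the filter on low signals and -0.067 over all tested probe sets. That filter kept a probe set by its mean over all 6 arrays, so a dim member could pass through the group where it was brighter.

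Several facts of the whole data set touch these results. Median signal per array was 17.3 to 18.9 in shear and 21.1 to 22.6 in static arrays, although all arrays had been scaled to the same trimmed mean. Correlations across tested probe sets were 0.980 to 0.993 within shear, 0.987 to 0.991 within static and 0.882 to 0.906 between the groups. For the beta-actin controls, 3′ signal over 5′ signal gave a log2 ratio of 0.37 to 0.42 in shear and 0.22 to 0.29 in static arrays. For the GAPDH controls the same ratio overlapped between the groups, at 0.150 to 0.162 in shear and 0.155 to 0.173 in static arrays. The part of these ratios in the results was not tested. All 8 smooth muscle markers looked up (11 probe sets) were above the filter. Of those probe sets 9 fell, where over the array 28.5% of tested probe sets fell and 24.3% rose. Lmod1 1374237_at and Mylk 1384818_at, with shear means of 6.10 and 4.90, below the limit of 6.69, passed only through their static values. The brightest, Tagln, averaged 2815 in shear and 2684 in static arrays and did not pass, nor did Des. The summed signal of the list was 4031 to 4182 in shear and 5637 to 6298 in static arrays. Of 9 endothelial probe sets 8 lay below the filter, among them those of Pecam1, Kdr, Vwf and Nos3, with a summed signal of 28.1 to 36.9 in shear and 36.0 to 48.7 in static arrays. Leukocyte markers summed to 122.1 to 164 in shear and 178.5 to 239.9 in static arrays, with 6 of 9 probe sets below the filter (Ptprc among them). Of the 3 tested, Cd14 fell (-0.68, limma adjusted p = 0.000960), Cd68 rose (0.70, limma adjusted p = 0.00372) and a Cd3e probe set did not pass. Cd14 was the brightest, with a mean of 107.9 in shear and 181.9 in static arrays. Fibroblast markers summed to 4488 to 7623 in shear and 5418 to 8004 in static arrays. Of their 8 probe sets 3 rose and 3 fell, where over the array 24.3% rose and 28.5% fell. Dcn (0.39) and both Dpt probe sets (0.46 and 0.49) rose, while Pdgfra (-2.25), Col14a1 1376105_at (-1.35) and Scara5 (-1.18) fell. Dpt 1371732_at had 38.3, 186.1 and 243.5 in shear cultures 1 to 3. In static cultures 1 to 3 it had 26.3, 137.4 and 152.3. Pair 1 was dimmest in both groups, and why was not tested. In such bulk RNA, fewer cells of a type and less RNA per cell cannot be told apart, and the part of these markers in the Notch results was not tested.

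Jag1 encodes a membrane-bound ligand that activates Notch receptors on the adjacent cell. Its signal was 106.3, 80.1 and 66.7 in shear cultures 1 to 3, against 289.5, 412.0 and 436.6 in static cultures 1 to 3. All sheared cultures lay below all static ones, and the static culture of pair 1 was the dimmest of its group. Jag1 averaged 84.4 ± 20.1 in sheared and 379.4 ± 78.8 in static cells (SD, n = 3 each), a 4.50-fold lower mean. On the log2(signal + 16) scale it fell by 1.98 (95% interval -2.44 to -1.51, limma adjusted p = 0.000121), with differences of -1.32, -2.15 and -2.45 in pairs 1 to 3. Over the array 431 of 21729 tested probe sets fell further. The second ligand, Jag2, had a signal of 5.7, 4.3 and 4.5 in shear cultures and 5.7, 10.3 and 1.2 in static cultures. These values overlapped and lay below or near the filter limit of 6.69, so Jag2 was not tested and no fold is given.

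**Figure D1:**
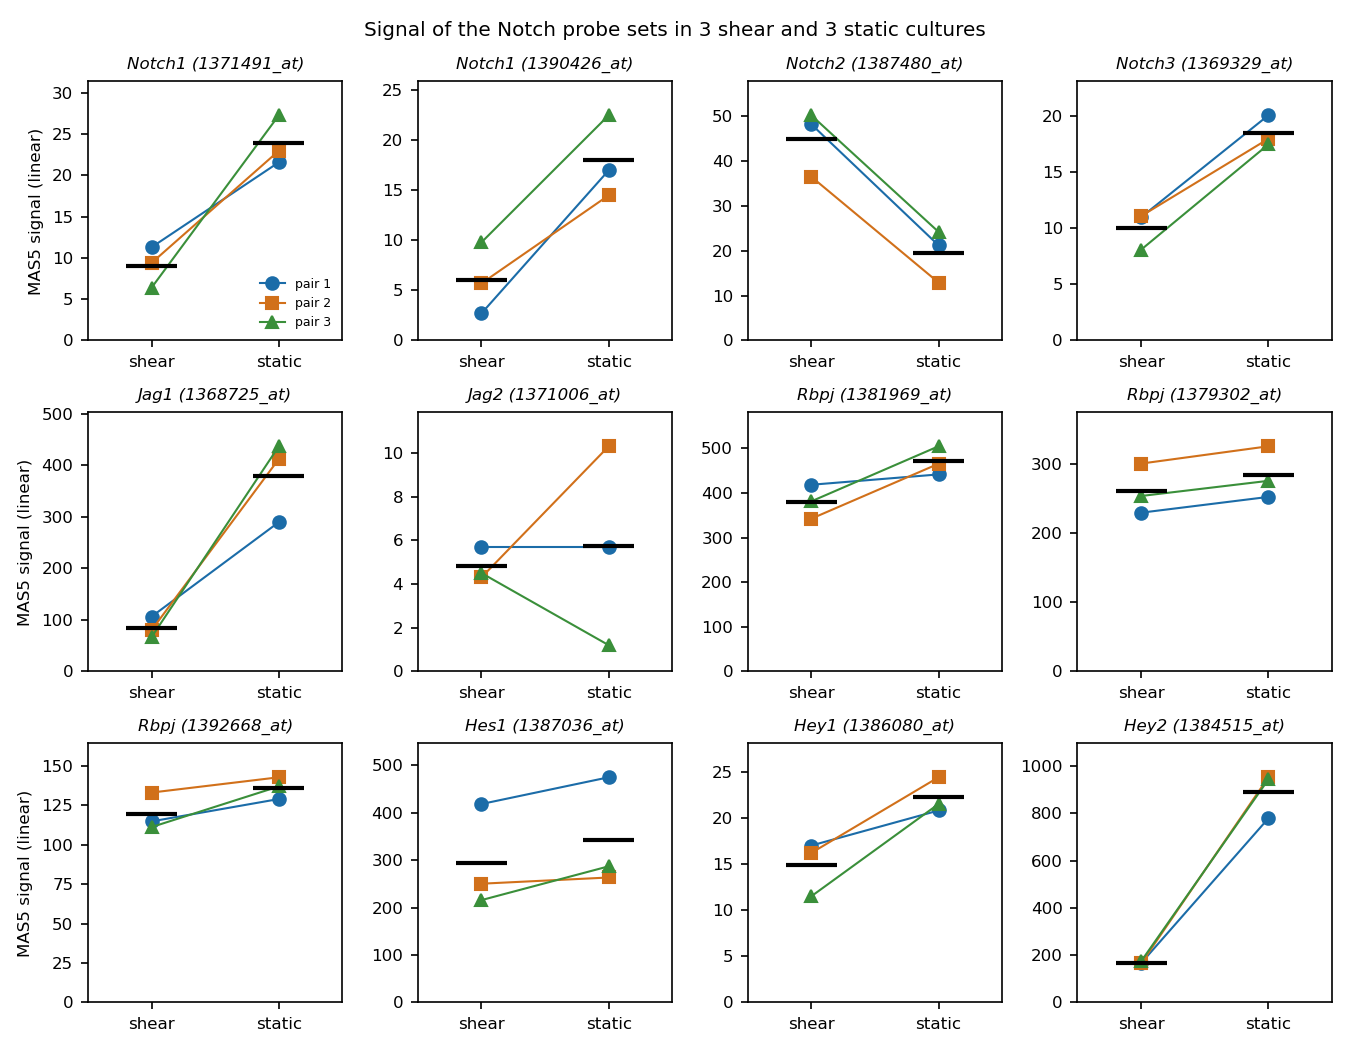
Deposited MAS5 signal (linear scale from 0, a scale of its own in each panel) of the 12 Notch probe sets in the 3 shear and 3 static cultures; lines join the cultures of a pair and black bars are group means. Jag1 and Hey2 show the widest separation, Notch2 is the panel in which all shear cultures lie above all static ones, and Jag2 stays near the lower end of the signal range.

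The receptors did not move together. Notch1 was measured by a pair of probe sets, both dim. The brighter, 1371491_at, had a signal of 11.3, 9.4 and 6.4 in shear cultures and 21.6, 23.0 and 27.3 in static cultures. The other, 1390426_at, had 2.7, 5.7 and 9.8 in shear cultures and 17.0, 14.5 and 22.5 in static cultures. On both, every sheared culture lay below every static one; over the array this held for 32.9% of tested probe sets. Notch1 fell by 0.68 (95% interval -1.01 to -0.34, limma adjusted p = 0.00521) and by 0.63 (95% interval -0.95 to -0.31, limma adjusted p = 0.00584), and the mean of 1371491_at was 2.65-fold lower in sheared cells. The sheared mean of 1390426_at, 6.07 ± 3.56 (SD, n = 3), was itself below the filter limit, so this probe set passed only through its static values, and no fold is given for it.

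Notch2 was the receptor that rose. Its signal was 48.2, 36.5 and 50.2 in shear cultures and 21.2, 12.9 and 24.2 in static cultures. All sheared cultures lay above all static ones, a separation seen in that direction for 27.1% of tested probe sets, and pair 2 was the dimmest in both groups. Notch2 averaged 45.0 ± 7.40 in sheared and 19.4 ± 5.85 in static cells (SD, n = 3 each), a ratio of 2.31. It rose by 0.79 on the log2(signal + 16) scale (95% interval 0.51 to 1.06, limma adjusted p = 0.000886), with 0.79, 0.86 and 0.72 in pairs 1 to 3, and 2071 tested probe sets rose further. The size of this change followed the pseudocount, from 0.39 with 64 added to 1.20 with 1 added, and the call held in both.

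Notch3, the receptor mutated in the hereditary small-vessel disease CADASIL in humans, had a signal of 11.0, 11.1 and 8.1 in shear cultures and 20.1, 18.0 and 17.5 in static cultures. The groups did not overlap, with a mean 1.84-fold lower in sheared cells. It fell by 0.41 (95% interval -0.70 to -0.11, limma adjusted p = 0.0282), and the call was lost whichever pair was left out (adjusted p = 0.0559 without pair 1, 0.0693 without pair 2 and 0.146 without pair 3). It was also lost after quantile normalization (-0.28, adjusted p = 0.102) and median centring (-0.26, adjusted p = 0.127). Because Notch1 and Notch3 are dim, their log2 changes depend on the pseudocount: with 1 added they were -1.34 (1371491_at) and -1.54 (1390426_at) for the Notch1 probe sets and -0.83 for Notch3, and with 64 added they were -0.27, -0.23 and -0.16. Whether the receptors differed from each other in their response was not tested; the interval of Notch2 lay above 0 and those of Notch1 and Notch3 below it.

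Rbpj encodes the DNA-binding protein through which all Notch receptors act, a repressor without Notch and an activator with it. Its brightest probe set, 1381969_at, had a signal of 418.5, 342.4 and 381.3 in shear cultures and 441.7, 465.6 and 504.8 in static cultures. The groups did not overlap on it, and the difference was smallest in pair 1. It fell by 0.30 (95% interval -0.53 to -0.06, limma adjusted p = 0.0403). That call was lost after median centring (-0.15, adjusted p = 0.243), without the filter (adjusted p = 0.0594), without the intensity trend (adjusted p = 0.0761), and without pair 2 (-0.23, adjusted p = 0.262) or pair 3 (-0.25, adjusted p = 0.247). The other Rbpj probe sets overlapped between groups and did not pass. On 1379302_at the signal averaged 260.9 ± 36.1 in sheared and 284.1 ± 37.4 in static cells (SD, n = 3 each), a log2 change of -0.12 (95% interval -0.33 to 0.098, limma adjusted p = 0.323) that became 0.032 after median centring. On 1392668_at the log2 change was -0.17 (95% interval -0.42 to 0.079, limma adjusted p = 0.221). The intervals of these 2 probe sets leave room for a fall of at most 0.42 on the log2 scale.

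Hes1, Hey1 and Hey2 encode basic helix-loop-helix repressors that RBPJ and Notch switch on together. A search of the RefSeq promoter windows of assembly GRCr8 (250 bases before to 50 bases after the gene start) for the core of the RBPJ binding motif, GTGGGAA on either strand, found it in the windows of Hes1 and Hey2 among the 8 member genes in the table; Hey1 had no entry. Of all 33469 windows 6.29% held these letters. The match lay 61 bases before the start of Hey2 and 124 bases before that of Hes1, each on the strand of the gene. Both windows are shown, at chr1:28640850-28641149 (+ strand) for Hey2 and chr11:84212996-84213295 (- strand) for Hes1, because they carry the same letters, although Hey2 passed the test and Hes1 did not; the difference between the genes was not tested. They are written 5′ to 3′ along the gene with the match in capitals; a match is a description and not evidence of binding.
Hey2: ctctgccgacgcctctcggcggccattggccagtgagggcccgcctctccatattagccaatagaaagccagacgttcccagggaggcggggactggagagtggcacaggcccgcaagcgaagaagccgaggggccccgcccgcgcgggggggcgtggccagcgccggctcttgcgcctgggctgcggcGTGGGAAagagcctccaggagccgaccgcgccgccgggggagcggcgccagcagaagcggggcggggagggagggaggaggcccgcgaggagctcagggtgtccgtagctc
Hes1: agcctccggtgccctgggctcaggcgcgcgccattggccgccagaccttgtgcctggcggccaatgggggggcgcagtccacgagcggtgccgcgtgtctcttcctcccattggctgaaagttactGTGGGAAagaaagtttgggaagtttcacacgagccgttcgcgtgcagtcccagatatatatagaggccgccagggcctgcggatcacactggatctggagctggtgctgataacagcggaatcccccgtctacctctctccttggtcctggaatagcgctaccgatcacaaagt

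Hey2 had a signal of 166.1, 164.8 and 173.9 in shear cultures, against 778.8, 952.6 and 943.5 in static cultures. The sheared values lay close together and far below all static ones. The mean was 168.3 ± 4.92 in sheared and 891.6 ± 97.8 in static cells (SD, n = 3 each), 5.30-fold lower. On the log2(signal + 16) scale Hey2 fell by 2.29 (95% interval -2.52 to -2.07, limma adjusted p = 3.02e-06), with -2.13, -2.42 and -2.34 in pairs 1 to 3. Only 254 of 21729 tested probe sets fell further. Falls that passed and reached at least 1 on the log2(signal + 16) scale were found for 8.95% of tested probe sets, and among the members for Hey2 and Jag1; on that scale the dim Notch1 probe sets did not reach 1, although the linear mean of 1371491_at was 2.65-fold lower.

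Hes1 differed between pairs more than between groups. Its signal was 418.5, 250.4 and 215.8 in shear cultures and 474.9, 263.5 and 287.1 in static cultures. Both cultures of pair 1 were the brightest of their group, and the groups overlapped. The log2 change was -0.21 (95% interval -0.45 to 0.027, limma adjusted p = 0.121), with -0.18, -0.07 and -0.39 in pairs 1 to 3, so the interval leaves out a fall as large as that of Hey2. Without pair 1 Hes1 passed as fallen (-0.23, adjusted p = 0.0408), a fit that rests on 2 pairs. After median centring the change was -0.06.

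Hey1, the close relative of Hey2, was dim, with 17.0, 16.2 and 11.5 in shear cultures and 20.8, 24.4 and 21.5 in static cultures. The sheared cultures all lay below the static ones, yet the log2 change of -0.31 did not pass (95% interval -0.61 to -0.0098, limma adjusted p = 0.078). It passed without pair 1 (-0.39, adjusted p = 0.0495) and at a threshold of 0.1. With 1 added in place of 16 it was -0.56, and with 64 added -0.13.

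**Figure D2:**
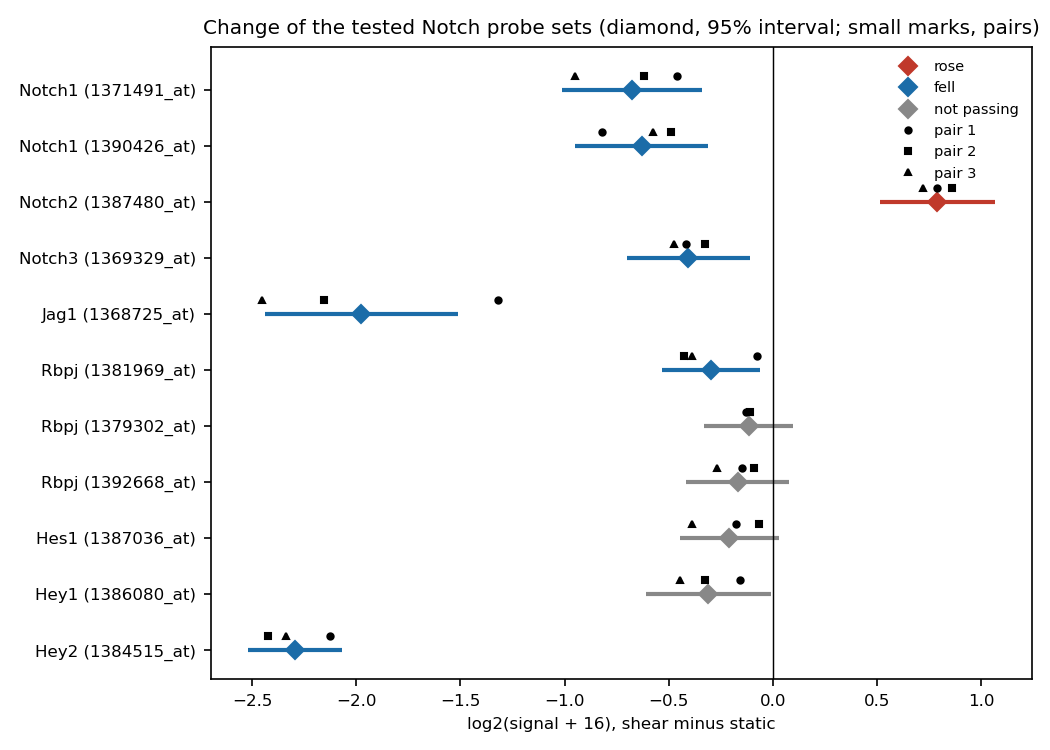
Change of the 11 tested Notch probe sets, shear minus static, on the log2(signal + 16) scale; diamonds are limma estimates, bars their 95% intervals and small marks the 3 pairs. Hey2 (-2.29) and Jag1 (-1.98) stand apart on the left, Notch2 (0.79) is the risen one, and the intervals of Hes1 and of 2 Rbpj probe sets cross 0.

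For the members with the widest change, the genes with the most similar differences in pairs 1 to 3 were looked up among 15979 tested probe sets of other genes with 1 symbol. Closest to Hey2 were the fatty acid elongase Elovl6 (root mean square distance 0.037 on the log2 scale, change -2.29), the growth factor receptor Fgfr3 (0.061, change -2.29) and Depdc1 (0.077, change -2.27). Closest to Jag1 were Flot1 (0.160, change -1.90), Arhgap11a (0.163, change -2.04) and Tnfaip8l3 (0.168, change -1.92). Within a distance of 0.2 there were 47 probe sets for Hey2 and 14 for Jag1. The measure rests on 3 values per probe set that come from the same arrays.

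Beyond the 9 members, 62 further genes of the pathway were listed by role, of which 52 had a probe set; 71 of their 86 probe sets were tested, 11 rose, 24 fell and 36 did not pass. Over the array 24.3% of tested probe sets rose and 28.5% fell. The median change of the 71 pathway probe sets was -0.20. After median centring 15 rose and 17 fell, while over the array 5283 rose and 6188 fell as deposited, against 6814 and 4720 after median centring. The median over all tested probe sets was -0.067 as deposited and 0.082 after median centring, and small changes such as that of Dll4 turned with it.

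The remaining receptor and ligands were hardly seen. Of 9 probe sets for Notch4, Dll1, Dll3, Dll4, Dlk1 and Dlk2, 8 were below the filter, and the tested Dll4 probe set had a change of -0.14 (adjusted p = 0.432), which turned to 0.011 after median centring. Among other HES and HEY factors 1 of 3 tested probe sets rose, against 24.3% over the array. The risen gene was Hes6, a relative that in mouse opposes Hes1. Hes6 had 137.1, 149.4 and 148.3 in shear cultures and 89.8, 118.5 and 105.3 in static cultures. It rose by 0.42 (limma adjusted p = 0.0128), a call lost without pair 3 (adjusted p = 0.0884). Heyl (-0.22, adjusted p = 0.185) and Hes5 (-0.20, adjusted p = 0.357) did not pass.

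Among genes of receptor glycosylation and maturation 1 of 6 tested probe sets rose and 2 fell, with a median of -0.09. Over the array 24.3% rose and 28.5% fell, so counts from so few probe sets say nothing particular about the list. Furin, the convertase that cuts the Notch precursor on its way to the surface, averaged 162.6 ± 16.2 in sheared and 75.4 ± 11.7 in static cells (SD, n = 3 each) and rose by 0.97 (limma adjusted p = 0.000300). Poglut1, which adds glucose to the EGF repeats of Notch, averaged 339.6 ± 2.27 in sheared and 560.6 ± 9.97 in static cells (SD, n = 3 each) and fell by 0.70 (limma adjusted p = 0.000302). The fringe glycosyltransferase Rfng fell by 0.34 on 1 probe set (adjusted p = 0.0260), a call lost after median centring (-0.20, adjusted p = 0.156), without pair 2 (adjusted p = 0.173) and without pair 3 (adjusted p = 0.158), and its other probe set did not pass (-0.09). The fringes Lfng (-0.09) and Mfng (0.13) did not pass.

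Genes of ligand endocytosis, which pulls the ligand and opens the receptor, had 0 of 7 tested probe sets called in limma, against 52.8% over the array. All 7 unadjusted limma p-values were above 0.05, the lowest being 0.0629 for Mib2 1385219_a_at. The 7 probe sets stand for 4 genes, so the count says nothing particular about the list. Without pair 1 there were 1 risen and 3 fallen, but calls over the array also went up, from 11471 to 13024. The ubiquitin ligase Mib2 had -0.19 and -0.39, or -0.42 and -0.66 without pair 1 (adjusted p = 0.00661 and 0.000330). Neurl1 had -0.36, or -0.60 without pair 1 (adjusted p = 0.00443). The endocytic adaptor Epn1 had -0.08 and the 3 probe sets of Epn2 had 0.17, -0.17 and -0.21; the first of these passed as risen after median centring (0.32, adjusted p = 0.0335) and without pair 1 (0.22, adjusted p = 0.0304).

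Of the receptor-cutting machinery, 1 of 8 tested probe sets rose and 2 fell, shares no higher than the 24.3% risen and 28.5% fallen over the array. Adam17, a protease that can make the first cut, averaged 314.5 ± 12.4 in sheared and 232.2 ± 5.91 in static cells (SD, n = 3 each) and rose by 0.41 (limma adjusted p = 0.00789), but not past the threshold without pair 2 (adjusted p = 0.0554) or pair 3 (adjusted p = 0.100). Adam10, the protease that makes this cut upon ligand binding, is named although chosen after its values were seen: it fell by 0.47 on its dimmer probe set (adjusted p = 0.0343), a call lost under both scalings (adjusted p = 0.146 and 0.132), without the filter (adjusted p = 0.0908), and without pair 1 (adjusted p = 0.0582) or pair 3 (adjusted p = 0.159). Its brighter probe set had -0.08 and did not pass. The gamma-secretase subunit Psenen fell by 0.38 (adjusted p = 0.0136), a call lost after median centring (adjusted p = 0.112) and without pair 3 (adjusted p = 0.100). Other subunits did not pass: Psen2 had -0.28 (adjusted p = 0.105, but 0.00824 without pair 1), Aph1a -0.20, and Ncstn -0.08 and 0.14.

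Of the nuclear partners 5 of 21 tested probe sets rose and 4 fell, shares no higher than the 24.3% risen and 28.5% fallen over the array, so the counts say nothing particular about the list. Kat2b, the acetyltransferase PCAF that works with the Notch complex, had 70.3, 104.9 and 94.1 in shear cultures and 537.5, 504.3 and 513.8 in static cultures on its brighter probe set, with no overlap. It fell by 2.35 (95% interval -2.65 to -2.05, limma adjusted p = 7.66e-06), and by 1.19 on its dimmer probe set, where the pseudocount weighs more. Maml2, a coactivator of the mastermind family, averaged 76.4 ± 9.25 in sheared and 246.0 ± 19.6 in static cells (SD, n = 3 each) on 1392600_a_at and fell by 1.51 there, while its other 3 probe sets did not pass (-0.29, -0.08 and 0.08). The corepressor Tle4 had 51.3, 53.9 and 64.4 in shear cultures and 8.7, 7.2 and 7.6 in static cultures on 1387495_at. Tle4 rose by 1.60 there, or by 2.70 with 1 added and 0.75 with 64 added, and by 0.93 on 1376869_at. The corepressor Cir1, which links RBPJ to histone deacetylases, rose by 1.08 and 0.59 on its 2 probe sets. The acetyltransferase Ep300 rose by 0.36 on its brighter probe set (adjusted p = 0.0166), but not past the threshold without pair 2 (adjusted p = 0.0591) or pair 3 (adjusted p = 0.138), and had 0.14 on the other. Tle2, named after its values were seen, fell by 0.46 (adjusted p = 0.0280), a call lost under both scalings (adjusted p = 0.105 and 0.119), without the filter (adjusted p = 0.0573), without pair 1 (adjusted p = 0.111) and without pair 3 (adjusted p = 0.0787).

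Genes of receptor turnover and feedback had 2 of 11 tested probe sets risen and 3 fallen. These shares were no higher than the 24.3% risen and 28.5% fallen over the array, so the counts say nothing particular about the list. The ubiquitin ligase Dtx4 had 44.4, 35.9 and 33.9 in shear cultures and 95.2, 153.5 and 148.2 in static cultures on its brightest probe set. It fell by 1.44 there (limma adjusted p = 0.000345) while a dimmer one with a change of -0.99 had a shear mean of 5.93, below the limit of 6.69, and so was tested only through its static values; one more was below the filter. Its relative Dtx2 rose by 0.71 (adjusted p = 0.00196). Numbl, related to the Notch antagonist Numb, rose by 0.46 (adjusted p = 0.0116, but 0.0986 without pair 2). Numb itself had -0.32 (adjusted p = 0.0603) and 0.23 on its probe sets; the first passed as fallen without the pair block (adjusted p = 0.0336) and with a random block (adjusted p = 0.0303), and the second passed as risen without pair 1 (adjusted p = 0.0158). Fbxw7, which marks the Notch intracellular domain for degradation, had 0.33 and 0.19; the first of these passed as risen after quantile normalization (0.48), after median centring (0.47) and without pair 1 (0.46). Nrarp, a feedback target of Notch named after its values were seen, fell by 0.38 on 1 dim probe set (adjusted p = 0.0444), a call lost whichever pair was left out (adjusted p = 0.139, 0.0668 and 0.167 without pairs 1, 2 and 3), under both scalings (adjusted p = 0.165 and 0.2), without the filter (adjusted p = 0.0695) and with 1 added (adjusted p = 0.0544). It had -0.20 on a second probe set, and one more was below the filter.

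**Figure D3:**
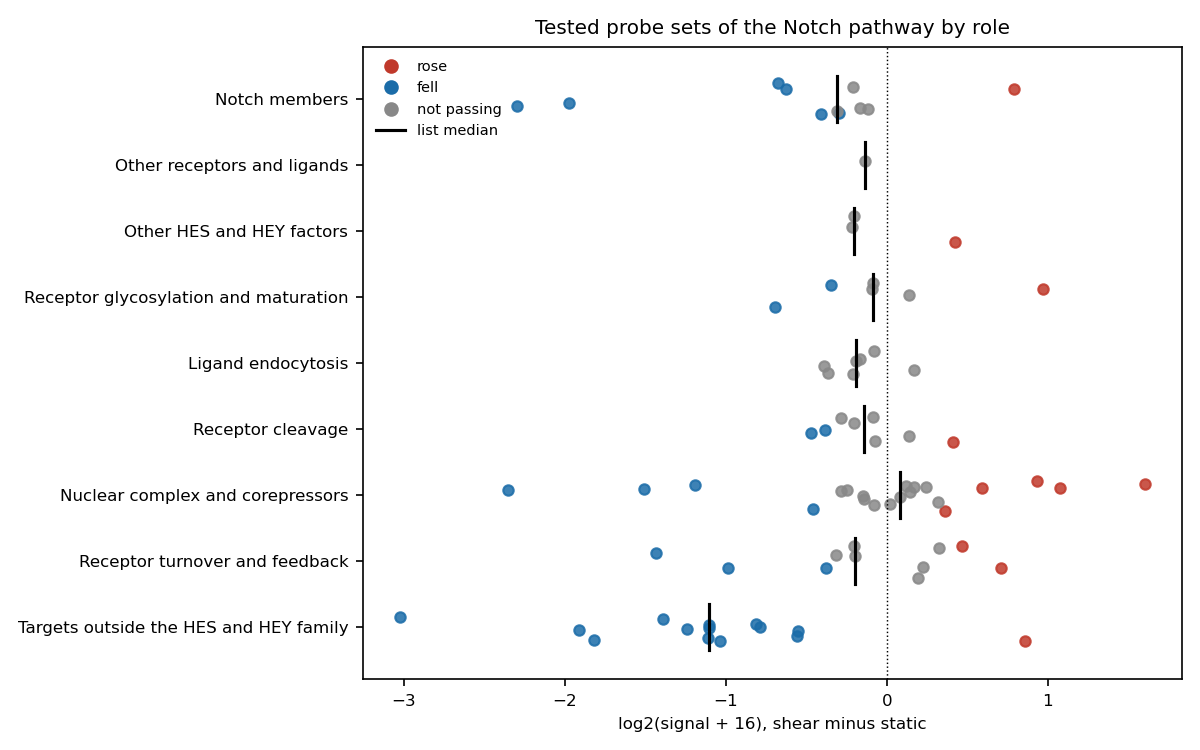
Change of every tested probe set of the Notch members and of 8 further lists of pathway genes (rows), shear minus static on the log2(signal + 16) scale, coloured by call at an adjusted p of 0.05; black ticks are list medians. Nuclear partners spread from -2.35 (Kat2b) to 1.60 (Tle4). Of the 14 probe sets (7 genes) in the list of targets outside the HES and HEY family 13 lie below 0. All 13 were called as fallen, against 28.5% over the array, and the list was chosen with earlier results of these data known.

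The last list held genes outside the HES and HEY family that have been linked to Notch in vascular smooth muscle or other cells. All 14 of its probe sets were tested, 13 fell and 1 rose, with a median of -1.10 against -0.067 over all tested probe sets, of which 28.5% fell and 24.3% rose; the list was chosen with earlier results of these data known, and several of these genes also belong to the contractile and cell cycle genes that those results had already shown to change. Pdgfrb, the PDGF receptor of mural cells and a target of Notch signalling, had 57.0, 26.1 and 23.4 in shear cultures and 308.2, 464.2 and 401.3 in static cultures on its brightest probe set. It fell by 3.02 (95% interval -3.59 to -2.45, limma adjusted p = 4.31e-05), and by 1.82 and 1.91 on the dimmer ones. Smooth muscle actin Acta2 fell by 1.10 (adjusted p = 1.71e-05). Cyclin D1, Ccnd1, fell on all 3 probe sets, by 1.24, 1.11 and 0.79. The cell cycle inhibitor Cdkn1b fell by 1.39 on its brighter probe set; its dim one, with a shear mean of 4.47 below the limit of 6.69 and so tested only through its static values, had a change of -0.56 (adjusted p = 0.0258), a call lost under both scalings (adjusted p = 0.069 and 0.0875), without pair 1 (adjusted p = 0.0743) and without pair 3 (adjusted p = 0.114). Myh11, the smooth muscle myosin heavy chain, fell by 1.04 and 0.55, the second a call lost after median centring (adjusted p = 0.0528) and without pair 2 (adjusted p = 0.0843), and smoothelin Smtn fell by 1.11 and 0.81; these 2 genes were named after their values were seen. Myc, a transcription factor that drives growth, was the gene of this list that rose, to 714.4 ± 43.2 in sheared cells, against 386.6 ± 19.2 in static cells (SD, n = 3 each), a log2 change of 0.86 (limma adjusted p = 9.39e-05).

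**Figure D4:**
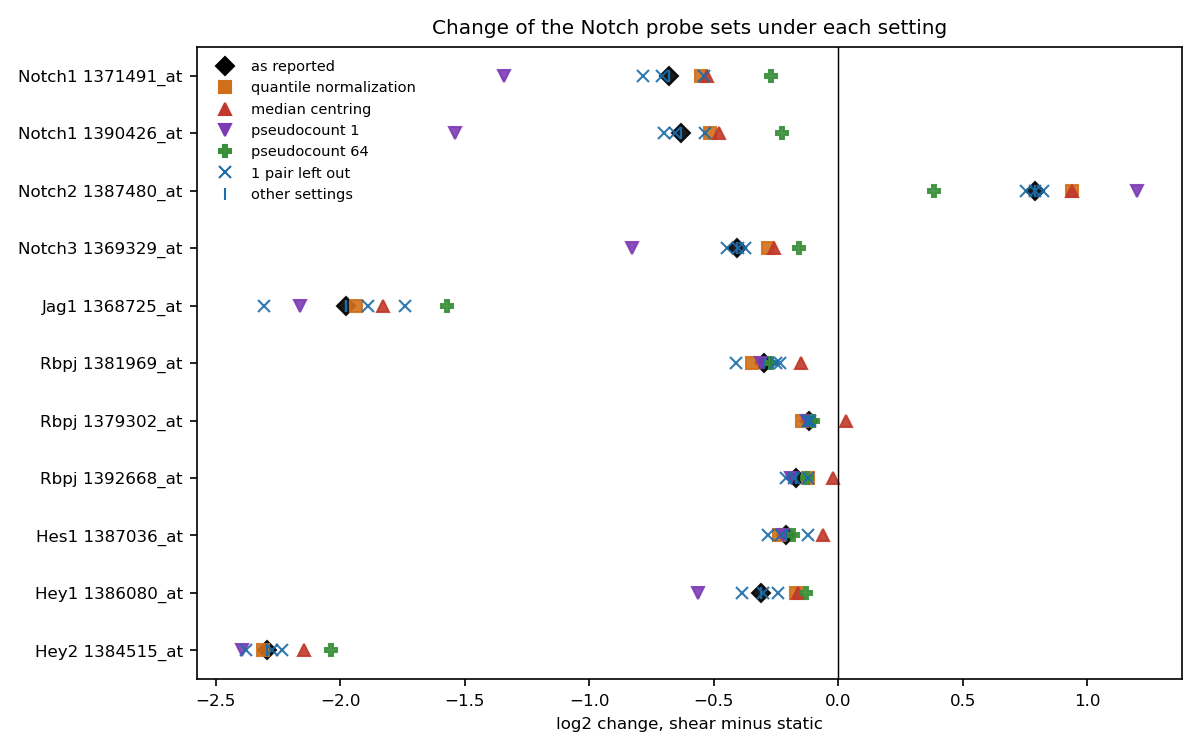
Log2 change of the 11 tested Notch probe sets (rows), shear minus static, as reported and under each other setting that gave a value. Hey2, Jag1 and Notch2 keep their side of 0 with a wide margin, the dim Notch1 and Notch3 probe sets spread with the pseudocount, and Rbpj 1379302_at crosses 0 after median centring (0.032).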

How the data were processed

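The deposited intensity values come from MAS5, per the submitters' processing notes, with 1 linear value per probe set from biotin-labelled RNA on Affymetrix rat arrays; no MAS5 version is named in the sources used here. The mean without the highest and lowest 2% of values was 100.0 on every array. The table held 31099 probe sets, 57 of them controls. Of the other 31042, the platform annotation gave 20826 a single symbol, 436 several and 9780 none, and 0 symbols changed through the GRCr8 gene table. The values held 3 to 10 zeros per array, so 16 was added before log2, and fold changes of dim genes come out too small. Filtering removed the dimmest 30% by mean (a limit of 4.50 on the log2 scale), leaving 21729.

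The shear minus static difference was fitted in limma 3.58.1 under R 4.3.3, with an intensity trend in eBayes and the pairing number as a fixed block in lmFit, since the series design calls the experiment paired. Deviations from group means correlated by 0.0712, 0.0648 and 0.0626 within pairs 1 to 3. Among the static arrays, each sheared array correlated best with its partner. Values this low are weak grounds for the pairing. Two-sided p-values were adjusted over all tested probe sets (Benjamini-Hochberg). The fit was also run on simulated arrays with known changes in few probe sets and independent noise without a pair effect. The real arrays, with 52.8% of tested probe sets called, differ from that setting, so the run does not bear on the calls. All probe sets of the members were named, up to 5 genes of each pathway list by the smallest p of each gene's brightest tested probe set, and for likeness the 3 nearest genes of the 2 most changed members. The members and lists were chosen with earlier results of these data known. The 14 alternatives changed the block, scaling, filter, pseudocount, variance estimate, pairs used or threshold. Precision is limited by the number of arrays, and no detection calls separate dim signals from background. Promoters were taken from RefSeq and searched in Python 3.11.15; figures were drawn with matplotlib 3.10.9.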

Additional observations from a re-analysis of the deposited data

How the results depend on the processing

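Hey2, Jag1, Notch2 and Notch1 1371491_at kept their direction and stayed past the threshold under every alternative that tested them. The 50% filter left the Notch1, Notch3 and Hey1 probe sets untested, and with it 3 member probe sets fell in place of 6. Over the array 5159 of 15521 tested probe sets fell under that filter. Notch1 1390426_at also kept its call where tested, but as it passed the filter only through its static values this is no sign of stability. Over the 11 tested member probe sets, 136 of 150 comparisons with an alternative kept direction and call, 10 lost the call, 3 gained it and 1 changed sign. Without the pair block 6 member probe sets fell and 1 rose, as with it; without 1 pair at a time 4 to 7 fell and 1 rose. Over the other pathway probe sets 25 fell and 12 rose without the block, and 18 to 26 fell and 8 to 15 rose without 1 pair. Counts over the array moved as well: 6198 fell and 5232 rose without the block. Without 1 pair 4534 to 7193 fell and 3855 to 5831 rose over the array. For 62 named pathway probe sets, 784 of 852 comparisons stayed as they were, 34 lost the call, 14 gained it and 20 changed sign, none of those last with a call. Changes of block, filter, variance estimate or threshold leave the log2 value as it is, so direction could not change there. A threshold of 0.1 cannot lose a call. The tallies for members and pathway are therefore no measure of stability, and that for the members includes Notch1 1390426_at. After quantile normalization the signs turned for Lfng (0.030), Rfng 1387622_at (0.063), Epn1 (0.070), Adam10 1388161_at (0.037) and Maml2 1379455_at (0.028). After median centring they turned for Rbpj 1379302_at (0.032), Dll4 (0.011), Lfng (0.059), Rfng 1387622_at (0.064), Epn1 (0.070), Ncstn 1367511_at (0.066), Adam10 1388161_at (0.074) and Maml2 1379455_at (0.069). Without 1 pair the values ran from -0.22 to 0.0060 for Lfng, -0.23 to 0.041 for Rfng 1387622_at, -0.24 to 0.16 for Epn1, -0.42 to 0.0052 for Mib2 1382259_a_at, -0.18 to 0.0092 for Adam10 1388161_at, -0.011 to 0.33 for Ncstn 1396543_at, -0.22 to 0.13 for Maml2 1379455_at and -0.062 to 0.19 for Maml2 1396088_at. Other than for the filter, the causes were not tested. Fits without a pair had 1 residual degree of freedom and lean on the variance borrowed from other probe sets. Signals near the filter limit of 6.69 give little more than a bound.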
